A study of Mus musculus with 4 samples.

Results

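The BCL2 family decides whether the mitochondrial route of cell death is opened. The 10 genes followed here were chosen by name: the survival genes Bcl2, Bcl2l1 (BCL-XL) and Mcl1, the BH3-only genes Bcl2l11 (BIM), Bid, Bbc3 (PUMA), Pmaip1 (NOXA) and Bmf, and the effector genes Bax and Bak1. A member was kept when the array annotation gave a probe set that symbol alone. This held for 9 of the 10, out of 19938 genes in all, each read by 1 probe set. Bax was not analysed here. Survival proteins of the family bind and hold back the effectors. The BH3-only proteins, named for the single short domain they share with the rest, occupy the survival proteins or activate the effectors directly. BAX and BAK then permeabilise the outer mitochondrial membrane, cytochrome c is released and caspases are activated. In dendritic cells the balance of these proteins is known to set lifespan, and plasmacytoid dendritic cells (pDCs), the main producers of type I interferon, are known to depend on BCL2.

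The arrays compared mature pDCs sorted from the spleens of wild-type (WT) mice and of mice lacking Flt3 (Flt3 KO), the receptor tyrosine kinase for FLT3 ligand. All mice were at steady state without treatment, and all spleens went through the same enzyme digestion. Each genotype had 2 samples, described as biological replicates. Strain, age, the design of the Flt3 allele and whether a sample was 1 animal or a pool are unstated in the labels. The p-values therefore cannot be tied to the spread between animals. They rest on the spread between replicate samples, which limma moderated by that of other genes of like intensity. In bulk samples, fewer cells of a type and less RNA per cell cannot be told apart. Values are log2 of the deposited intensity, a difference is Flt3 KO minus WT, its standard error (SE) and 95% interval come from a limma fit over all genes, and the threshold was an adjusted p under 0.05.

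Flt3 itself, the targeted gene, read 10.71 and 10.77 in WT against 8.46 and 8.61 in Flt3 KO, so the labels matched its signal. Across genes, log2 profiles correlated at 0.997 within each genotype and at 0.994 to 0.995 between genotypes; genes are not independent replicates. All 12 measured pDC markers were above 5.89, the median level of all genes, in both genotypes, Siglech, Bst2 and Tcf4 among them. Of these 12, 5 fell, led by Tlr7 (fell by 0.49), Ccr9 (fell by 0.43) and Spib (fell by 0.47). All 12 differences were below 0 (median −0.24), and 10 of the 12 had an unadjusted p under 0.05 in limma. Values were lower without overlap for 11 of the 12, beside 25.3% of all genes. Of 17 measured monocyte and macrophage markers, 5 rose and none fell, with Ccr2 at 0.70, Fn1 at 0.88 and Cx3cr1 at 1.03. By unadjusted p under 0.05 in limma, 9 of the 17 were higher and 0 lower. The list was not uniform: 9 were higher without overlap, 7 overlapped, and Cd68 was lower without overlap. Cd68, named after its value was seen, differed by −0.11 and did not pass (adjusted p = 0.33). The summed intensity of these 17 was 5613 and 5116 for WT against 6254 and 8196 for Flt3 KO, so Flt3 KO replicate 2 was the highest. No marker in either list was at 0. Among 7 measured plasma cell markers Jchain rose by 1.20 and Xbp1 fell by 0.25. In the lists of conventional dendritic, B, T and NK cells, neutrophils, erythroid cells and platelets, limma called 0 of 50 markers, with 10 higher and 3 lower by unadjusted p under 0.05. Of all genes, 17.1% had an unadjusted p under 0.05, 6.95% higher and 10.1% lower. The unadjusted counts of the lists in this paragraph and below stand beside those shares.

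For the members with the largest differences, Mcl1 and Bid, the 250 bases before the RefSeq transcript start (GRCm38.p6) are shown to place the genes and the short motifs in them. The Mcl1 stretch is chr3:95658471-95658720 on the plus strand and the Bid stretch is chr6:120916825-120917074 on the minus strand. Both are written 5′ to 3′ along the gene, and capitals mark matches to an ETS core (CCGGAAG) or a GC box (GGGCGG) on either strand.

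Mcl1: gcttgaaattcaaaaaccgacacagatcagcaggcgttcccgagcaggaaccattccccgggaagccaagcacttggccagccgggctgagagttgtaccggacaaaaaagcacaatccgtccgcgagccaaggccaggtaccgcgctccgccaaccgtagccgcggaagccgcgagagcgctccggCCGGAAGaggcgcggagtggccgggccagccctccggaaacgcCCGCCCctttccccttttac

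Bid: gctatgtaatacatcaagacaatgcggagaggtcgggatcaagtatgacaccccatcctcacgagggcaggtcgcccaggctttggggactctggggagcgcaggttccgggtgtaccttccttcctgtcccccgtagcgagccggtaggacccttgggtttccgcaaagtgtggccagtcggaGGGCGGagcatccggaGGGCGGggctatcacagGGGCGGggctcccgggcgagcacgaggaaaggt

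Mcl1 held 1 ETS match and 1 GC box, and Bid held 3 GC boxes and no ETS match. ETS matches occurred in 8.86% and GC boxes in 35.7% of the 32851 promoter windows in the same RefSeq table, each window running from 250 bases before to 50 after a start. The STAT motif TTCNNNGAA, found in 8.3% of all windows, was in none of the 15 member windows searched, which belonged to 8 members. Windows on the chromosome of Pmaip1 were left out for the members but kept among the 32851, so Pmaip1 was not searched. The FOXO motif GTAAACA, found in 3.65% of all windows, was in 2 of the 15. These were in windows of Bbc3 and Bcl2l11, genes known as targets of FOXO factors, and the matches are shown in capitals with 20 bases on each side. The Bbc3 stretch is chr7:16310074-16310120 and the Bcl2l11 stretch chr2:128125791-128125837, both on the plus strand. No 2 of the motifs overlapped in the sequences shown. A match is a description of letters and not of a bound site.

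Bbc3: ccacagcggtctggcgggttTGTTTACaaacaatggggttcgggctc

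Bcl2l11: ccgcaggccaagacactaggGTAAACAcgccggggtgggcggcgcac

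Of the 9 measured members, Mcl1 rose and Bid fell in Flt3 KO pDCs, and 7 did not pass the threshold. Among all genes 2.39% passed, 1.08% higher and 1.31% lower; centring each array on its median gave 217 higher and 452 lower genes in place of 215 and 261, and left the same pair of members past the threshold. The median difference of the 9 was 0.050, against −0.0010 for all genes. Values did not overlap between genotypes for 6 of the 9 members, 4 higher and 2 lower, beside 47.2% of all genes (21.9% higher and 25.3% lower).

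**Figure D1:**
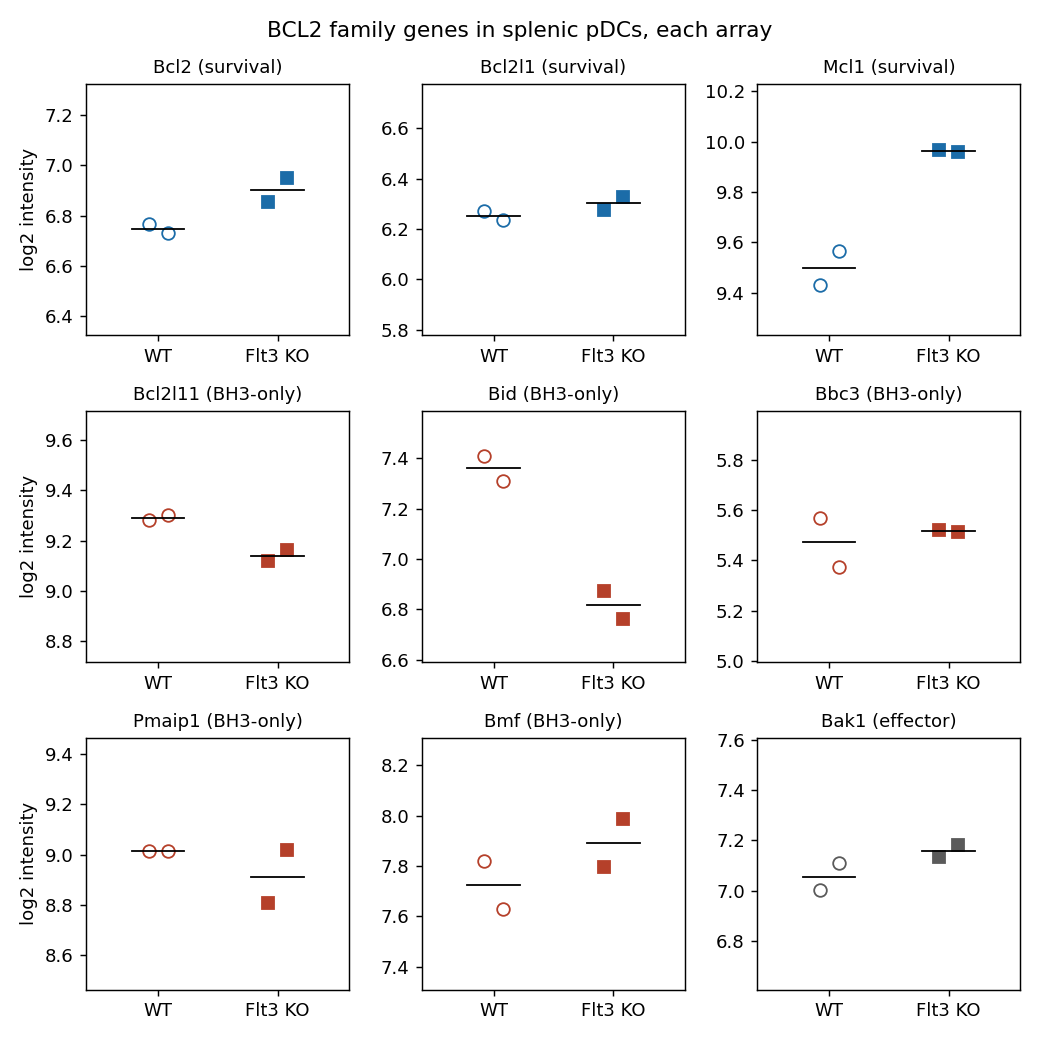
Log2 intensity of the 9 measured BCL2 family genes in each array (open circles WT, filled squares Flt3 KO, line the mean of 2 samples; each panel spans the same 1 log2 unit, colour gives the role). Mcl1 sits at 9.43 and 9.57 in WT and at 9.97 and 9.96 in Flt3 KO, and Bid at 7.41 and 7.31 against 6.87 and 6.76; the other 7 panels show smaller shifts.

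Among the survival genes, Mcl1 encodes a short-lived protein that holds BAK and BIM in check and that many blood cells need to survive. Its log2 intensity was 9.43 and 9.57 for WT against 9.97 and 9.96 for Flt3 KO. Both Flt3 KO values were above both WT values, and the Flt3 KO arrays lay closer to each other than the WT arrays did. On the linear scale the intensities were 690 and 757 in WT against 1002 and 996 in Flt3 KO. Mcl1 rose by 0.47 (SE 0.061, 95% interval 0.32 to 0.61, adjusted p = 0.015), a 1.38-fold difference. With a single array left out the difference was 0.40 to 0.53 and the adjusted p 0.14 to 0.28; such fits had 1 residual degree of freedom. Without the intensity trend in the variance its adjusted p was 0.086, and in the other 8 alternatives with all arrays the call was kept, with adjusted p down to 0.0054. Monocyte and macrophage markers were higher in both Flt3 KO arrays by summed intensity, most in Flt3 KO replicate 2. Without that array the Mcl1 difference was 0.47 with an adjusted p of 0.17, and the part of those markers in the Mcl1 difference was not tested.

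Bcl2 encodes the founding survival protein, on which pDCs are known to rely. It read 6.77 and 6.73 in WT against 6.85 and 6.95 in Flt3 KO. The Flt3 KO arrays were higher without overlap, but the difference of 0.15 (SE 0.079, 95% interval −0.034 to 0.34) did not pass (adjusted p = 0.39). Bcl2l1, whose long product BCL-XL also restrains BAX and BAK, read 6.27 and 6.23 in WT against 6.28 and 6.33 in Flt3 KO. Its groups barely parted, and the difference of 0.050 (SE 0.082, 95% interval −0.14 to 0.24) did not pass (adjusted p = 0.82). Its single probe set does not separate the long survival form from the short form that promotes death.

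The BH3-only gene Bid encodes a protein that links death receptors to mitochondria: caspase-8 or granzyme B cuts it, and the truncated product activates BAX and BAK. Its log2 intensity was 7.41 and 7.31 in WT against 6.87 and 6.76 in Flt3 KO, with both Flt3 KO arrays below both WT arrays and the gap between genotypes several times that between replicates. The linear intensities were 170 and 159 in WT against 117 and 109 in Flt3 KO. Bid fell by 0.54 on the log2 scale (SE 0.082, 95% interval −0.74 to −0.35, adjusted p = 0.021), a 1.46-fold difference. With a single array left out it was −0.60 to −0.49, with adjusted p of 0.12 to 0.33. Its call was also lost without the intensity trend (adjusted p = 0.063) and with all 30177 probe sets tested together (adjusted p = 0.051), and was kept in the other 7 alternatives with all arrays, with adjusted p down to 0.0098. Caspase-8, encoded by Casp8, read 8.64 and 8.66 in WT against 8.59 and 8.60 in Flt3 KO, a difference of −0.053 that did not pass (adjusted p = 0.71). Casp8 is named after its value was seen. The 12 measured pDC markers had a median difference of −0.24, and the part of cell composition in the Bid difference was not tested.

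Within each array, the log2 ratio of the Mcl1 signal to the Bid signal does not depend on the scaling of the array. It was 2.02 and 2.25 in WT against 3.10 and 3.20 in Flt3 KO, a shift of 1.01. The ratio joins the 2 members that had passed, so it is a description without a test, and it does not compare their levels.

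Bcl2l11 encodes BIM, the BH3-only protein released when growth factor signals are withdrawn. It read 9.28 and 9.30 in WT against 9.12 and 9.16 in Flt3 KO. Both Flt3 KO values were lower, with a difference of −0.15 (SE 0.055, 95% interval −0.28 to −0.022) that did not pass after adjustment (adjusted p = 0.23). Pmaip1 encodes NOXA, which binds MCL1 and speeds its breakdown. It read 9.01 and 9.02 in WT against 8.81 and 9.02 in Flt3 KO. Flt3 KO replicate 1 alone was low, and the difference of −0.10 (SE 0.078, 95% interval −0.28 to 0.082, adjusted p = 0.57) became 0.0024 without that array.

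Bmf encodes a BH3-only protein tied to the cytoskeleton and to loss of attachment. It read 7.82 and 7.63 in WT against 7.80 and 7.99 in Flt3 KO, so the groups overlapped, and the difference of 0.17 (SE 0.096, 95% interval −0.060 to 0.39) did not pass (adjusted p = 0.43). Without WT replicate 1 it was 0.26 and without Flt3 KO replicate 2 it was 0.071. Bbc3 encodes PUMA, a p53 and FOXO target that binds every main survival protein. It read 5.57 and 5.38 in WT against 5.52 and 5.51 in Flt3 KO, below the median level of all genes in each genotype, where signal over background is low. Its difference was 0.045 (SE 0.10, 95% interval −0.19 to 0.28, adjusted p = 0.88) and turned to −0.052 without WT replicate 2.

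The measured effector, Bak1, encodes BAK, which sits in the outer mitochondrial membrane. It read 7.002 and 7.11 in WT against 7.13 and 7.18 in Flt3 KO. The Flt3 KO arrays were slightly higher without overlap, and the difference of 0.10 (SE 0.078, 95% interval −0.083 to 0.28) did not pass (adjusted p = 0.57).

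**Figure D2:**
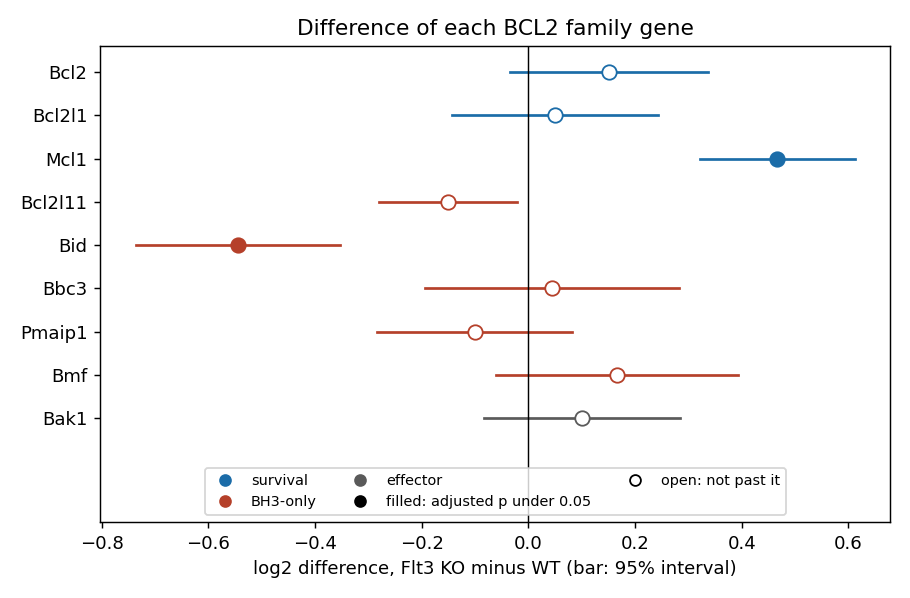
Log2 difference (Flt3 KO minus WT) of each member with its 95% interval from limma, filled where the adjusted p was under 0.05, coloured by role. Mcl1 at 0.47 and Bid at −0.54 are filled, and of the open points only the interval of Bcl2l11, −0.28 to −0.022, leaves out 0.

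For the 7 members that did not pass, the interval ends farthest from 0 were 0.39 for Bmf and 0.34 for Bcl2 on the positive side and −0.28 for Bcl2l11 and Pmaip1 on the negative side. The absolute differences of Mcl1 and Bid were at the 97.7 and 98.7 percentiles of all genes, and those of the other 7 lay between the 25.6 percentile (Bbc3) and the 73.0 percentile (Bmf).

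**Figure D3:**
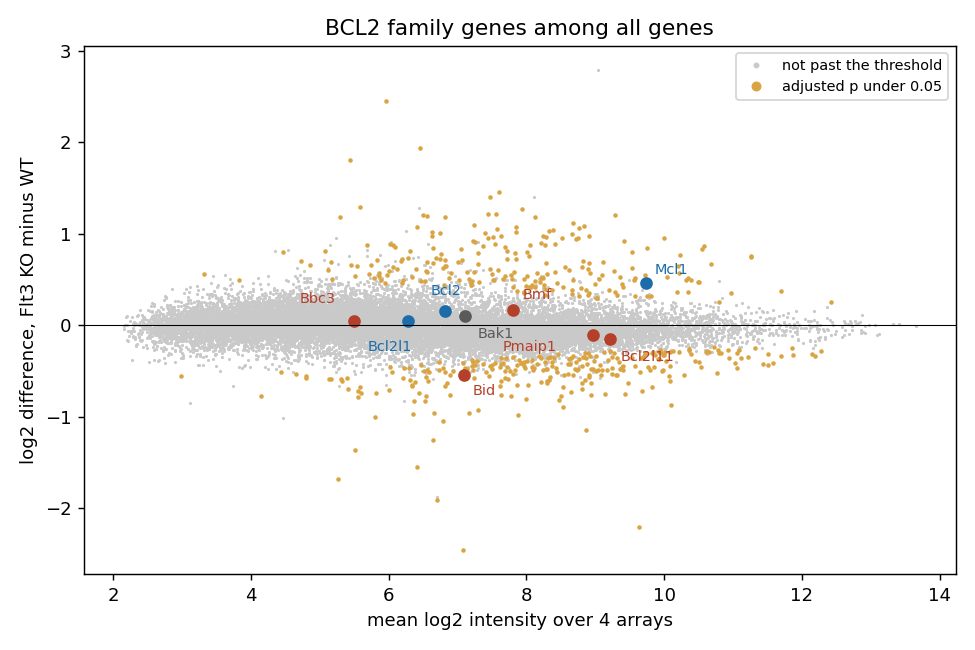
Log2 difference (Flt3 KO minus WT) against mean log2 intensity over 4 arrays for all 19938 genes (grey, or gold where the adjusted p was under 0.05), with the 9 members as larger points coloured by role (blue survival, red BH3-only, dark grey effector). Mcl1 and Bid lie among the gold points, and the other 7 members lie within the grey band.

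The rest of the family held no gene past the threshold. Of 18 further BCL2-like genes, 15 had a probe set of their own, and limma called none of them, with 1 higher and 1 lower by unadjusted p under 0.05, where all genes gave 17.1% (median difference 0.060). In the list of other survival members, Bcl2l10 differed by −0.24 (adjusted p = 0.26) and Bcl2a1c by 0.16 (adjusted p = 0.45). Both were below the median level of all genes, and Bcl2a1c has near-identical copies, so its value is uncertain. The copies Bcl2a1a, Bcl2a1b and Bcl2a1d had no probe set of their own and were not measured, so Bcl2a1c does not stand for them. The BH3-only gene Hrk had the largest positive difference, 0.27 (SE 0.082, adjusted p = 0.16), with 7.11 and 7.26 in WT against 7.49 and 7.42 in Flt3 KO. Bok, an effector-like gene, differed by 0.12 (adjusted p = 0.65). Of the BNIP genes, which act at mitochondria in hypoxia and mitophagy, Bnip3 had 2 probe sets that went opposite ways, 0.20 and −0.19, and Bnip1 differed by −0.11.

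In the list of mitochondrial release and caspases, 0 of 14 measured genes passed in limma, with 2 higher and 2 lower by unadjusted p under 0.05 (median −0.037). The cytochrome c gene Cycs, named after its value was seen, was 1 of the 2 lower (difference −0.15, adjusted p = 0.24). Its probe sets were discordant: the others differed by −0.041 and 0.72. The last read 4.25 and 4.01 in WT against 4.85 and 4.85 in Flt3 KO, below the median level of all genes. The executioner caspase gene Casp6 read 7.77 and 7.61 in WT against 7.95 and 7.96 in Flt3 KO, a difference of 0.26 (adjusted p = 0.14). Diablo, whose product SMAC leaves mitochondria and relieves caspase inhibition, read 8.16 and 8.04 in WT against 7.81 and 7.90 in Flt3 KO, a difference of −0.24 (adjusted p = 0.16). None of 5 inhibitor of apoptosis genes passed in limma, nor had any an unadjusted p under 0.05 (0 of 5), and Birc3 and Birc2 ranked first by p, with differences of 0.12 (adjusted p = 0.31) and −0.082 (adjusted p = 0.65). A second probe set of Birc2 differed by 0.054. None of 11 genes of the death receptor pathway passed, with 1 higher and 2 lower by unadjusted p under 0.05. The TNF receptor gene Tnfrsf1a differed by 0.31 (adjusted p = 0.12) and the adaptor gene Tradd by −0.23 (adjusted p = 0.20). Tnfrsf1a read 9.68 in Flt3 KO replicate 1 and 9.93 in Flt3 KO replicate 2, the array with the most monocyte and macrophage signal, against 9.49 and 9.50 in WT, and the part of those cells in its difference was not tested.

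Upstream, none of 11 transcription factors and p53 targets acting on the family passed in limma (2 higher and 3 lower by unadjusted p under 0.05, median −0.072). Myc, which primes cells for death as well as growth, read 6.06 and 5.86 in WT against 6.31 and 6.48 in Flt3 KO, a difference of 0.43 (SE 0.11, adjusted p = 0.10). The cell cycle factor gene E2f1 differed by −0.33 (SE 0.079, adjusted p = 0.093). FOXO genes, whose products AKT keeps out of the nucleus, did not pass: Foxo4 differed by 0.23 (adjusted p = 0.29), Foxo1 by 0.16 (adjusted p = 0.35) and Foxo3 by −0.12 (adjusted p = 0.48). These 3 are named after their values were seen; Foxo4 and Foxo1 were higher without overlap and Foxo3 overlapped. Of 8 measured genes for ubiquitin ligases, deubiquitinases and kinases that act on MCL1 or BIM protein, 0 passed in limma and 1 was lower by unadjusted p under 0.05. That gene was Btrc, a subunit that recruits phosphorylated MCL1 for ubiquitination, which read 8.52 and 8.39 in WT against 8.09 and 8.10 in Flt3 KO and had an adjusted p of 0.0514 (difference −0.36, SE 0.070). Fbxw7, another such subunit, differed by −0.17 (adjusted p = 0.40).

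Mcl1 was first known as an early response gene, and genes of that kind were followed beside it. Of 13 measured, Ier3 and Dusp1 rose, where 1.08% of all genes were called higher. The other 11 did not pass, and the median difference was 0.21. At an unadjusted p under 0.05 in limma, 6 of the 13 were higher and 0 lower, beside 6.95% and 10.1% of all genes. Ier3 read 4.90 and 4.73 in WT against 5.61 and 5.40 in Flt3 KO (difference 0.69, SE 0.11, adjusted p = 0.030), and its level was below the median of all genes in both genotypes. Dusp1, a phosphatase of MAP kinases, read 10.84 and 10.93 in WT against 11.40 and 11.87 in Flt3 KO (difference 0.75, SE 0.13, adjusted p = 0.038). In 8 of the 13 both Flt3 KO values were above both WT values, beside 21.9% of all genes. The list was not uniform: Fosb (−0.024), Nr4a1 (−0.065) and Btg2 (−0.061), named after their values were seen, had differences below 0. The part of Ier3, Dusp1 and the rest of this list in the Mcl1 difference was not tested.

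**Figure D4:**
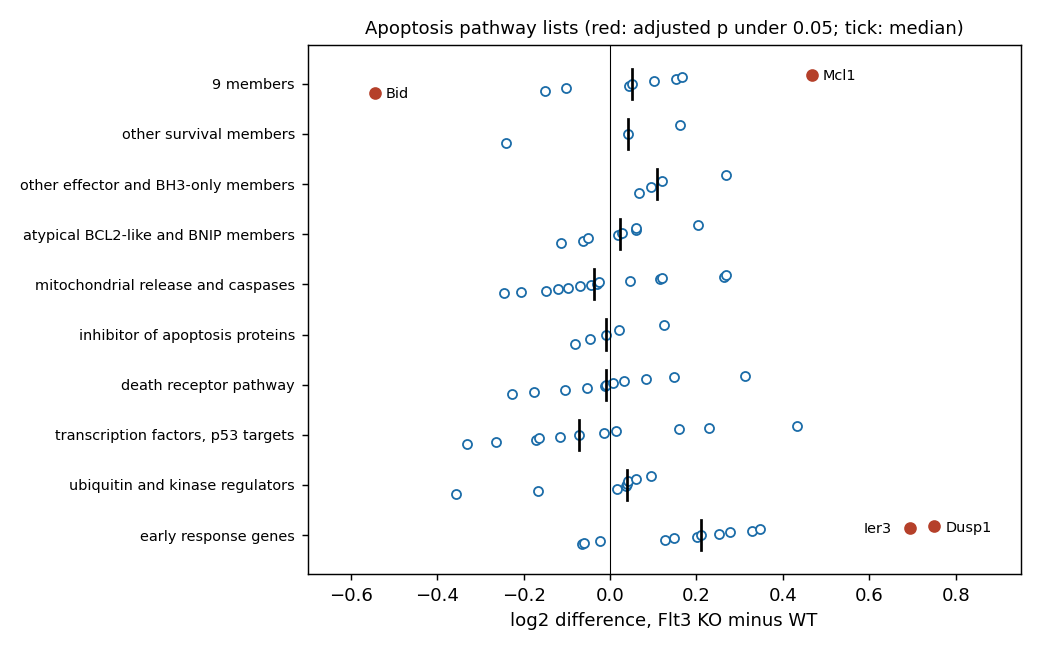
Log2 difference (Flt3 KO minus WT) of the 9 members and of the measured genes of 9 pathway lists, 1 point a gene, red and named where the adjusted p was under 0.05, with a tick at each median. Mcl1, Bid, Ier3 and Dusp1 are the named points, and the median of the early response list, 0.21, is the highest of the lists.

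The genes whose profile over the 4 arrays was nearest to that of a changed member were found by the root mean square distance between log2 values centred on their own mean. For Mcl1 these were Ffar2, a receptor for short-chain fatty acids (distance 0.020), the transcription factor gene Cebpd (0.024) and Tchp (0.026). Cebpd rose by 0.50 (adjusted p = 0.038) and Tchp by 0.47 (adjusted p = 0.042), while Ffar2 differed by 0.48 and did not pass (adjusted p = 0.068). For Bid they were the syndecan gene Sdc4 (0.025), the cell cycle transcription factor gene Foxm1 (0.026) and the kallikrein gene Klk1b5 (0.026), whose paralogs are near-identical and can share signal. Sdc4 fell by 0.51 (adjusted p = 0.0085), Foxm1 by 0.51 (adjusted p = 0.036) and Klk1b5 by 0.55 (adjusted p = 0.036). Ffar2 and Klk1b5 read below the median level of all genes in each of the 4 arrays. With 4 arrays in 2 groups, such nearness mostly restates a like difference.

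Genes next to the members on their chromosomes were checked by RefSeq order. Of the 2 protein-coding genes on each side of every member, 34 of 36 were measured and limma called 0, with 4 by unadjusted p under 0.05. Bid lies between Bcl2l13, itself a BCL2-like gene, and Mical3, which differed by 0.019 and −0.058. Mcl1 lies between Ensa (−0.14) and Adamtsl4 (0.13). None of the 9 members (0 of 9) lies on the chromosome that carries Flt3.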

How the data were processed

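Expression was measured on whole-transcript GeneChip arrays. The deposited values are the authors' processed intensity, on a linear scale, of 30177 probe sets; how they were background-corrected, summarised and scaled is unstated (not given in the sources used here). In the platform annotation 21789 had a single symbol, 1621 several and 6767 none. For each of the 19938 genes the single-symbol probe set with the highest mean was kept. Intensities were converted to log2 with no added constant and no filter, and genotypes compared with limma 3.58.1 in R 4.3.3 (eBayes with an intensity trend, no covariate, Benjamini-Hochberg over all genes), a script tested on simulated data. An exact permutation test of 2 against 2 cannot go below 0.3333. The number of arrays limits the precision. Members and lists were chosen with earlier results of these data known. Named genes were the members, Flt3, the called genes of each pathway list (otherwise the 2 with the lowest p), up to 3 called markers per cell type and the 3 nearest profiles. Promoter letters are from RefSeq, GRCm38.p6. The counts of called genes and called members and the difference of each member were recomputed under 13 alternatives. These covered scaling, filter, variance model, probe set choice, replicate block and arrays left out. Calls of the other named genes, the marker and pathway lists, the nearest profiles and the neighbours were not recomputed.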

Additional observations from a re-analysis of the deposited data

How the results depend on the processing

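Mcl1 and Bid kept their direction in all 13 alternatives, Mcl1 between 0.40 and 0.53 and Bid between −0.60 and −0.49, and both stayed past the threshold under median centring, quantile normalization, 16 added to each intensity, a filter at the median level, robust variance and averaged probe sets. With the intensity trend left out, 0 members and 108 genes passed in limma (2 members and 3136 genes at an unadjusted p under 0.05). With all probe sets tested together 1 member and 219 genes passed, and with only genes above the median level 724 genes did. With 1 array left out, 0 members and 0 to 54 genes passed, where 2 or 3 members had an unadjusted p under 0.05. The 2 signs that turned were that of Bbc3, at −0.052 without WT replicate 2 (up to 0.14 with another array left out), and that of Pmaip1, at 0.0024 without Flt3 KO replicate 1 (down to −0.20 otherwise); the other 5 members that did not pass kept their sign. The deviations of same-numbered replicates correlated across genes at −0.017, so no shift shared by replicate number was seen. The labels do not state whether same-numbered samples were handled together, and this correlation cannot decide it. With the replicate number as a block 375 genes and 2 members passed, 341 of the genes shared with the 476 called without it. Bbc3 gave no value under the filter on dim genes. Where a call was lost with an array left out, the fit had fewer samples and 1 residual degree of freedom; the cause of the other losses was not tested.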
